A study of Arabidopsis thaliana with 18 samples.

Results

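Unmethylated gene bodies are nuclear genes whose transcribed span carried next to no CG or CHG methylation in wild-type (WT) Arabidopsis thaliana leaves. They were chosen from the pooled calls of 3 WT plants by 3 limits: at least 20 CG cytosines read at a depth of 4 or more, a CG level below 2% and a CHG level below 1%. Of 33056 nuclear loci, 28497 had 20 such CG cytosines and 12491 met every limit. A level is weighted, that is, methylated calls divided by all calls over the cytosines of a gene. The limits use the WT CG and CHG values themselves, so these values are given below as a description only.

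The data came from 3-week-old Col-0 plants, and all 18 samples are true leaves 4 - 9. MethylC-seq was performed on 3 WT plants and 3 plants of strs2, a T-DNA insertion mutant of a DEAD-box RNA helicase in the Col-0 background, and the labels give no light treatment for these 6 plants. As all strs2 plants are of 1 insertion line, the mutation and the descent of that line cannot be told apart. mRNA-seq was performed on WT plants only, with 3 libraries in each of 4 groups: naive (N), naive and triggered (N+T), primed (P) and primed and triggered (P+T). Primed plants had a week of recurring excess light (EL) at 1000 μmol photons m-2 s-1, given 3 times a day, and triggering was a further EL exposure. Samples of a group were independent plants. N replicate 3 and N+T replicate 3 stood apart and were left out of the fits, following the methods of the study, and their values are given beside the others.

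In plants, methylation in gene bodies is mostly in the CG context, where the methyltransferase MET1 copies it onto the new DNA strand after replication. Many genes expressed at a steady, moderate level in most tissues carry it, whereas other genes carry none. Methylation in CHG and CHH contexts (H is A, T or C) marks transposons and is kept by chromomethylases and by RNA-directed DNA methylation, a pathway guided by small RNAs.

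The following 200 bp stretches show what the terms mean in sequence. Each is written in the direction of its gene, with every CG in capitals, from the RefSeq TAIR10.1 assembly. The first belongs to CAB1, a chlorophyll a/b binding protein of the photosystem II antenna and the most abundant transcript of all unmethylated genes in N plants, and lies in its coding exon at chr1:10478285-10478484 on the + strand. The others hold the local CG gains in strs2 described further below: the coding exon of AGL85, a MADS-box gene (chr1:20434112-20434311, + strand), an exon and intron of ERO1, an oxidoreductase that forms disulfide bonds in the endoplasmic reticulum (chr1:27213021-27213220, - strand), and an exon and intron of AT3G29280, an uncharacterized protein (chr3:11236976-11237175, - strand).
CAB1: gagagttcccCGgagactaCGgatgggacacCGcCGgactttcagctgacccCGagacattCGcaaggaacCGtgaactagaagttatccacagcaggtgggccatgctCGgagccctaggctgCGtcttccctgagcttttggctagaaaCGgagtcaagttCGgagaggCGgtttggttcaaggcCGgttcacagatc
AGL85: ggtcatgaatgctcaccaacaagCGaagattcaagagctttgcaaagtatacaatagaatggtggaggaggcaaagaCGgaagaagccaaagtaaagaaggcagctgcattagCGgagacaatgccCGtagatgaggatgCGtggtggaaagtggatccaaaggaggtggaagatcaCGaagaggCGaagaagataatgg
ERO1: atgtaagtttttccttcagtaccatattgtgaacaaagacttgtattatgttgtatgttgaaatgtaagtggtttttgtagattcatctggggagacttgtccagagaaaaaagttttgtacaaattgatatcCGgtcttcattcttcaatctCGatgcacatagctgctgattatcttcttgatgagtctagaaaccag
AT3G29280: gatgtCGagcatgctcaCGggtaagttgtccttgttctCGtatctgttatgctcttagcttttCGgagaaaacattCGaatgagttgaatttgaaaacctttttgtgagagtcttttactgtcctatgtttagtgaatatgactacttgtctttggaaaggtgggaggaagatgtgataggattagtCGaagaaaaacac

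In the CAB1 stretch, with 13 CG pairs, the CG level was 0% in WT replicates 1 and 3, 1.01% in WT replicate 2, 0% in strs2 replicates 1 and 2 and 0.613% in strs2 replicate 3. In the AGL85 stretch, with 7 CG pairs, WT replicates 1 to 3 were at 0%, 0% and 0.685% and strs2 replicates 1 to 3 at 85.6%, 90.3% and 91.5%. The CAB1 plants overlapped, whereas the AGL85 plants fell at the 2 ends of the scale. In the ERO1 stretch, with only 2 CG pairs, the 3 WT plants were at 0% and the strs2 plants at 85.0%, 91.2% and 81.3%, from 20 to 36 calls a plant. In AT3G29280 the WT plants were at 0%, 1.01% and 0.80% and the strs2 plants at 89.8%, 92.6% and 70.6%.

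The median WT level of the 12491 genes was 0.448% for CG, 0.436% for CHG and 0.477% for CHH, and 95% of them had a CG level at or below 1.31%. Of the genes with 20 CG cytosines, 11637 had a CG level below 1%, 1066 had a level from 1% to 2% and 775 a level from 2% to 3%. Just inside the limit were AT3G02125 at 1.998%, AT3G25190 at 1.998% and AT5G47380 at 1.997%, and just outside were AT4G32285 at 2.000%, AT2G17060 at 2.002% and CYP705A5 at 2.002%.

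The depth behind a gene was large. The pooled WT calls over the CG cytosines of an unmethylated gene had a median of 1945 and were never fewer than 237, and all 12491 had at least 20 calls in every plant. The gene with the most CG cytosines was AT5G17980, of a C2 calcium/lipid-binding family, with 497 in a span of 3686 bp and 46 methylated of 11758 calls. The next were ASY2, a HORMA-domain protein related to the meiotic axis protein ASY1, with 492, AT3G03680, of the same C2 family, with 454, and ABCG25, an abscisic acid exporter, with 449. The levels of ASY2 were 1.896% to 2.333% in WT and 2.82%, 2.55% and 2.60% in strs2, whereas those of ABCG25 were 0.344%, 0.508% and 0.469% in WT and 0.160%, 0.712% and 0.377% in strs2.

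For orientation, the mean depth of a CG cytosine was 7.19 to 9.71 across the 6 plants, and the mRNA libraries held 3665503 to 33081543 counts. The reads of the chloroplast genome, which is not methylated and so gives the rate of unconverted cytosines, had a CHH level of 0.435% to 0.592%. Leaf genes were high and genes of other organs low in the libraries: RBCS1A was at 10959 to 20007 CPM (counts scaled by the effective library size), whereas the seed genes CRA1 and SESA1, the flower genes AP3 and PI, the pollen genes AGP6 and AT5G45880 and the root gene AT5G17820 stayed below 1 CPM in all 12 libraries. The root gene PYK10 reached 3.40 CPM.

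Unmethylated genes were short. The median span was 1469 bp (interquartile range, 922.5 to 2066 bp), against 3029 bp for the 9380 CG-methylated genes (CG of at least 10%, CHG below 2%), 2203 bp for the 5361 genes between the classes and 1008 bp for the 1265 genes with a CHG level of at least 10%. They had a median of 2 exons, with 35.2% of them in a single exon, against 7 exons and 8.91% for CG-methylated genes. The share of unmethylated genes fell with each step in span, from 70.7% of genes below 1 kb to 62.4%, 33.1%, 17.2%, 9.26% and then 2.13% at 6 kb or more. Over the same steps the share of CG-methylated genes went from 6.16% to 86.5%. A short gene has fewer CG cytosines, so that the minimum of 20 bears most on the first step.

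**Figure D1:**
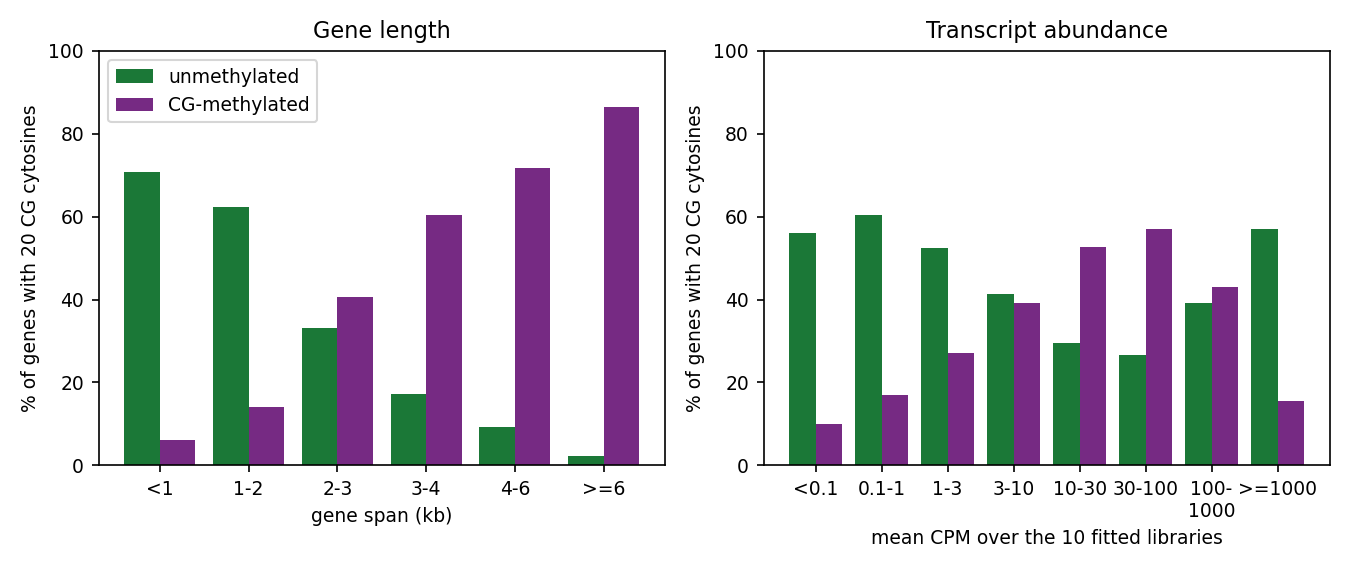
Share of the genes with 20 CG cytosines that were unmethylated (green) or CG-methylated (purple), by gene span in kb (left) and by mean transcript abundance in CPM over the 10 fitted libraries (right). Bars start at 0, and the share of unmethylated genes goes from 70.7% below 1 kb to 2.13% at 6 kb or more, and is lowest, at 26.6%, from 30 to 100 CPM.

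Their letters differed too. CG pairs were closer to the number that the base composition predicts, with a median ratio of observed to predicted CG of 0.804 against 0.608 for CG-methylated genes, while the GC content was near 38.8% and 39.0%. Unmethylated genes held 59.6 CG cytosines per kb and CG-methylated genes 45.4. The chromosomes were alike in this respect, with 42.6% (chromosome 4) to 44.8% (chromosome 5) of the genes unmethylated. Of the unmethylated loci, 11061 were protein-coding, which is 42.1% of such loci with 20 CG cytosines, and 1077 were long non-coding RNA genes, which is 64.9% of theirs. The span of 27.1% of them overlapped another locus, so that these share cytosines with a neighbour.

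Gene families differed widely around the 42.1% of all protein-coding loci. Histone genes were unmethylated in 42 of 52 cases (80.8%), ethylene response factors, a family of stress and hormone transcription factors, in 93 of 113 (82.3%) and expansins, which loosen cell walls, in 29 of 34 (85.3%). Aquaporins and related channels followed with 30 of 37 (81.1%), late embryogenesis abundant proteins with 69 of 90 (76.7%), bHLH factors with 97 of 138 (70.3%), cytosolic and organellar ribosomal proteins with 231 of 334 (69.2%), and light-harvesting and photosystem proteins with 47 of 73 (64.4%). At the other end stood kinesins, the motor proteins of microtubules, with 1 of 30, pentatricopeptide proteins, which process organellar RNA, with 26 of 271 (9.59%) and helicases with 14 of 129 (10.9%). The median span was 1001.5 bp for histones and 5330.5 bp for kinesins. None of the 13 genes of the DNA methylation machinery, among them MET1, CMT3, DRM2 and STRS2 itself, was unmethylated, and their median span was 5890 bp.

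Averaged over all unmethylated genes, the CG level rose outside the gene borders. Most single genes nevertheless had a low upstream level, as given below. In the metaprofile, the WT CG level of unmethylated genes was 12.6% in the outermost 100 bp of the 2 kb before the gene, 0.993% in the last 100 bp before it, 0.474% to 0.633% over the 20 equal parts of the body, 2.74% in the first 100 bp after it and 13.4% in the outermost 100 bp of the 2 kb after it. The CG-methylated genes had 1.10% in the first part of the body and up to 49.5% inside. In CHG and CHH the bodies of the 2 classes were nearly alike, at 0.439% to 0.464% and 0.473% to 0.543% for CHG, and at 0.477% to 0.520% and 0.481% to 0.522% for CHH. Both classes were defined by a low CHG level, below 1% and below 2%, so nothing is read from their likeness in CHG. Cytosines of other genes were left out of the flanks.

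**Figure D2:**
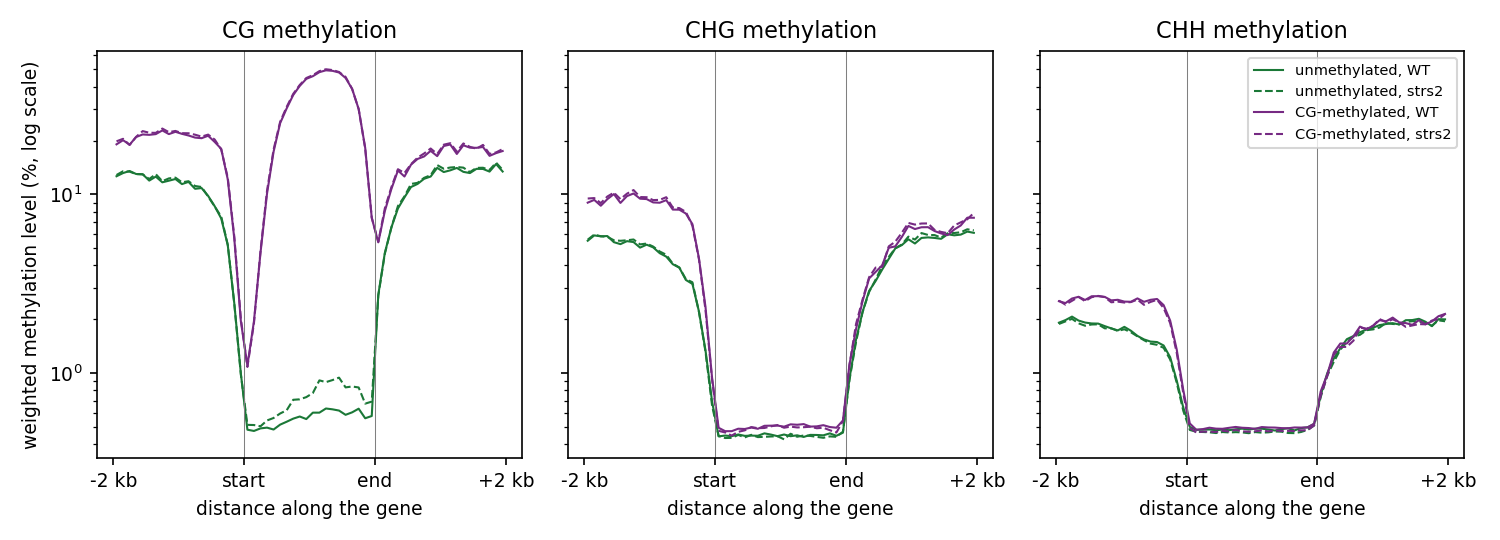
Weighted methylation level in percent (log axis) along unmethylated (green) and CG-methylated (purple) genes, from 2 kb before the start to 2 kb after the end, in CG, CHG and CHH context, for the pooled WT (solid) and strs2 (dashed) plants. Body bins are twentieths of the span and flank bins are 100 bp, and the CG level of unmethylated bodies lies at 0.474% to 0.633% in WT, with the strs2 line above it.

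The CHH level, which the limits did not use, was at the level of unconverted cytosines. Over all unmethylated bodies, WT replicates 1 to 3 had 0.451%, 0.557% and 0.472% and strs2 replicates 1 to 3 had 0.444%, 0.464% and 0.505%. These values differed from the chloroplast CHH level of the same plant by -0.0452 to 0.00964 percentage points. The genotypes overlapped, with a mean of 0.493% ± 0.0562 (SD, n = 3) in WT and 0.471% ± 0.0307 (SD, n = 3) in strs2 (two-sided exact permutation test, p = 0.6, and the smallest possible p is 0.1). The difference of -0.0224 percentage points changed sign without WT replicate 2, to 0.0101.

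In the flanks of unmethylated genes the 2 genotypes overlapped in CG level. In the 1 kb before the gene the CG level was 7.44%, 6.74% and 7.34% in WT and 7.10%, 7.45% and 7.44% in strs2, and in the 1 kb after it 8.78%, 8.23% and 8.75% against 8.54%, 8.93% and 8.93%. For comparison, the CG level before CG-methylated genes was 14.0% ± 0.740 (SD, n = 3) in WT. The exact permutation p of the 6 genotype comparisons (3 contexts, 2 flanks) lay between 0.5 and 0.8, and each was 0.8 after adjustment over the 6. Most single genes had a low upstream CG level as well. Of the 12491, 9276 were below 2%, 713 at 2% to 20% and 1222 at 20% or more, and 1280 had fewer than 20 upstream calls. Among genes with at least 20 upstream calls, 10.9% of unmethylated genes were at 20% or more. This was so for 18.9% of CG-methylated genes and 17.3% of all genes with 20 CG cytosines, so a level below 20% was the rule in each of these groups. Among unmethylated genes with an upstream level of 20% or more, 47.1% passed the expression filter, against 52.8% among those below 2%. Among those that passed, however, the median RPKM (CPM per kilobase of span) in N was higher, at 7.52 against 5.57. The genes with 20% or more were also shorter, with a median span of 1358.5 bp against 1527 bp.

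Many unmethylated genes had little or no transcript in these leaves. The filter for testing, a level above 1 CPM in 3 or more of all 12 libraries, was passed by 6418 of them (51.4%), against 87.1% of CG-methylated genes and 5.61% of genes with CHG methylation. In each of the 12 libraries the share above 1 CPM was lower in unmethylated genes (44.8% to 48.3%) than in CG-methylated genes (80.1% to 85.8%). CPM is not scaled by length, and unmethylated genes were shorter. Below 1 kb, 21.6% of unmethylated and 15.3% of CG-methylated genes passed the filter, and from 1 to 2 kb 59.6% and 65.6%. In every class from 2 kb upwards the share was lower in unmethylated genes, at 57.9% to 72.7% against 91.0% to 98.6%. Unmethylated genes made up 56.1% of the genes below 0.1 CPM, 26.6% of those from 30 to 100 CPM and 56.9% of the 116 genes at 1000 CPM or more. This is a comparison of genes, which are not replicates, and no test was made.

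Among genes that passed the filter, the 2 classes were close in level per length. The median RPKM (CPM per kilobase of the span in the files, which includes introns) was 5.06 to 8.07 in unmethylated genes and 3.81 to 6.24 in CG-methylated genes, and was lower in unmethylated genes in 7 of 12 libraries. By exon length, an alternative chosen after seeing the data, the medians were 6.53 to 10.2 and 5.71 to 9.49, and were lower in unmethylated genes in 11 of 12 libraries. The exception was N replicate 3, where unmethylated genes took 55.4% of all counts, against 41.6% to 46.0% in the other 11 libraries, and where the median RPKM by span was 8.07 for unmethylated and 3.81 for CG-methylated genes. No difference in the share of counts passed the test between N+T and N, P+T and P, P and N or P+T and N+T, with two-sided exact permutation p of 0.2 to 1, where the smallest possible p is 0.1, or 0.333 for the 2 fitted libraries each of N+T and N.

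The most abundant unmethylated genes were genes of photosynthesis. By median RPKM in N plants, CAB1 came first at 12686, 13610 and 22294 in the 3 N libraries, and 6416, 6876 and 12137 in N+T. RBCS1A, the small subunit of Rubisco, followed at 8335, 9827 and 12077 in N, and then LHB1B2 and LHCB3, proteins of the light-harvesting antenna, PSAG, a subunit of photosystem I, and PSBR, a subunit of photosystem II, with median RPKM of 5998, 3501, 3280 and 3173. None of these 6 passed the test for a response to EL. The fitted log2 change of CAB1 in N+T against N was -0.97 (edgeR adjusted p = 0.0839) and that of RBCS1A was -0.20 (adjusted p = 0.689). LHB1B2 belongs to a family of near-identical genes, for which the division of reads among copies is uncertain.

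Naive plants responded to the first EL exposure at 1138 of the 6418 tested unmethylated genes. The transcripts of 551 rose (8.59%, against 7.74% of all 17986 loci tested) and those of 587 fell (9.15%, against 7.43%), by edgeR's quasi-likelihood test at a false discovery rate below 0.05 on the 10 libraries. Together this was 17.7% of them, against 15.2% of all loci and 13.1% of CG-methylated genes. In bulk leaves, a change in RNA per cell and a change in the number of cells of a type cannot be told apart. In primed plants, 357 unmethylated genes passed the test after triggering (5.56%, against 4.48% of all loci and 3.54% of CG-methylated genes), of which 133 rose (2.07%, against 2.05%) and 224 fell (3.49%, against 2.44%). The share that rose in primed plants was thus near the background.

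The sizes of change differed between the classes in the same way. The median absolute log2 change after the first EL exposure was 0.66 in unmethylated and 0.39 in CG-methylated genes, and in primed plants 0.37 and 0.23. The spread between replicates was also larger in unmethylated genes, with a median biological coefficient of variation of 28.1% against 20.5%. In all 5 classes of abundance, from below 3 CPM to 100 CPM or more, the share called was higher in unmethylated genes: in naive plants it was 13.2% to 20.8%, against 11.1% to 15.3% of CG-methylated genes, and in primed plants 3.23% to 7.48% against 1.65% to 6.32%. The same held from 1 kb upwards in every class of length, where in naive plants it was 16.1% to 26.4% of unmethylated and 11.5% to 14.1% of CG-methylated genes. Below 1 kb it was 15.5% of 774 unmethylated genes and 12 of 48 CG-methylated genes.

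**Figure D3:**
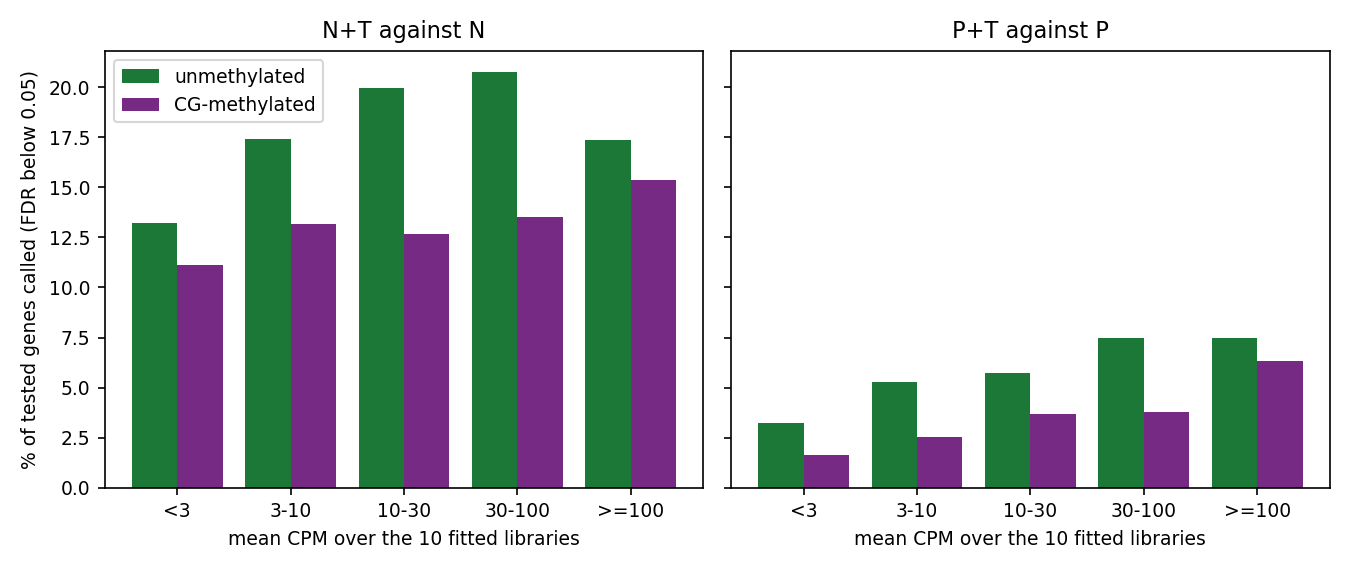
Percent of the tested genes that passed a false discovery rate of 0.05 in N+T against N (left) and in P+T against P (right), by mean CPM over the 10 fitted libraries, for unmethylated (green) and CG-methylated (purple) genes. In each abundance class the green bar is the higher, for example 20.8% against 13.5% from 30 to 100 CPM in naive plants.

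These counts depended on single libraries. In N+T against N, 57 unmethylated genes passed without N replicate 1, 1 without N replicate 2, 168 without N+T replicate 1 and 684 without P+T replicate 2, and 377 passed with all 12 libraries. In P+T against P, 138 passed without N replicate 1 and 138 without N replicate 2, 927 without P replicate 1, 132 without P replicate 2, 178 without P replicate 3, 132, 66 and 36 without P+T replicates 1, 2 and 3, and 84 with all 12 libraries. In each of the 16 fits of either comparison, the share called was higher in unmethylated genes than in all loci tested. These fits share most of their libraries, so they are not independent of each other. In N+T against N without N replicate 2, the calls were too few for the shares to be compared.

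The 6 named unmethylated genes that rose most in naive plants were, by fitted log2 change, DOX1, AT4G16260, WRKY67, MSRB7, AT1G52560 and APX2. APX2, a cytosolic ascorbate peroxidase that removes hydrogen peroxide, was at 0 CPM in the 3 N libraries and at 8.78, 1.05 and, in the library left out, 13.1 CPM in N+T. This is at least 41.5-fold higher in the fitted N+T libraries, taking 3 counts over both N libraries as the floor (edgeR adjusted p = 0.0301). WRKY67, a transcription factor, was at 0, 0 and 0.47 CPM in N and at 13.3, 3.89 and 0 CPM in N+T, at least 91.1-fold higher in the fitted libraries (adjusted p = 0.0376), with overlap once the libraries left out are counted. DOX1 is an alpha-dioxygenase of oxylipin formation, AT4G16260 a glycosyl hydrolase, and MSRB7 repairs oxidized methionine. These 3 also rose on the fitted libraries, with adjusted p of 0.0491, 0.0408 and 0.0400, and were at 0 CPM in N+T replicate 3. In N replicate 3 they were at 3.96, 26.1 and 6.82 CPM. For MSRB7 this lies between the fitted N+T values of 5.49 and 7.52 CPM.

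The remaining gene of this group was AT1G52560, a small heat shock protein, at 0, 0.0651 and 0 CPM in N and 117, 2.62 and 13.4 CPM in N+T (adjusted p = 0.0346). With all 12 libraries, AT1G52560 and APX2 kept the call (adjusted p of 0.0227 and 0.0181), and the other 4 did not (0.1402 to 0.797).

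The 6 named unmethylated genes that fell most in naive plants were GolS3, WSD1, AT2G41990, GRF4, NRT2:1 and AT4G29610. GRF4, a growth-regulating factor of leaves, was at 5.79, 7.55 and 5.80 CPM in N and at 0.412, 0.109 and 5.65 CPM in N+T, where the last value is the library left out, just below the lowest N library. The fitted log2 change was -5.05 ± 0.63 (SE, adjusted p = 0.0061), and the adjusted p was 0.296 with all 12 libraries. GolS3, a galactinol synthase of the raffinose pathway, was at 10.9, 23.6 and 41.5 CPM in N and 0.686, 0.109 and 2.68 CPM in N+T, a log2 change of -5.95 ± 1.38 (SE, adjusted p = 0.0281). Here no library overlapped, and the call held with all 12 (0.0432).

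The others of this group were WSD1, a wax ester synthase, AT2G41990, a late embryogenesis abundant protein, NRT2:1, a high-affinity nitrate transporter, and AT4G29610, a cytidine deaminase. Their log2 changes lay between -5.73 and -4.55, with adjusted p of 0.0152 to 0.0457. With all 12 libraries, the call held for AT2G41990 and AT4G29610 and was lost for WSD1 (0.295) and NRT2:1 (0.0895).

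In primed plants, the 6 named unmethylated genes that rose most after triggering were PRF4, AT4G29770, ATERDJ3A, TIN1, Hsp70-2 and NF-YC2. ATERDJ3A, a DnaJ co-chaperone of the endoplasmic reticulum, was at 18.7, 1.70 and 5.40 CPM in P and 282, 192 and 185 CPM in P+T, a log2 change of 4.67 ± 0.79 (SE, edgeR adjusted p = 0.0202). Hsp70-2 was at 30.0, 9.57 and 12.7 CPM in P and 513, 247 and 192 CPM in P+T, a log2 change of 4.19 ± 0.58 (SE, adjusted p = 0.0109). NF-YC2, a subunit of a CCAAT-binding factor, was at 4.08, 2.15 and 2.99 CPM in P and 72.8, 43.8 and 40.5 CPM in P+T, a log2 change of 4.09 ± 0.34 (SE, adjusted p = 0.0045). None of these genes overlapped between P and P+T, and each also rose in naive plants, by a log2 change of 7.30, 5.60 and 4.66.

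The others were TIN1, a gene induced by tunicamycin, PRF4, a profilin, and AT4G29770, a target of trans-acting small RNAs, with log2 changes of 4.49, 5.20 and 4.89. With all 12 libraries the call was lost for PRF4 (adjusted p = 0.0609) and held for the other 5. P replicate 1 was the highest P library for ATERDJ3A, Hsp70-2 and NF-YC2, and HSP70, another unmethylated heat shock gene, was at 613 CPM in it against 5.46 and 14.0 CPM in P replicates 2 and 3. Without that library, 927 unmethylated genes passed in P+T against P (14.4%, against 12.5% of all loci).

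The unmethylated genes that fell most after triggering in primed plants included AT5G61590, a DNA-binding protein of the ethylene response factor family, at 13.2, 72.7 and 35.7 CPM in P and 3.39, 1.505 and 1.56 CPM in P+T. Its log2 change was -4.23 ± 0.65 (SE, adjusted p = 0.0154). NCED4, a carotenoid cleavage enzyme, was at 86.5, 616 and 595 CPM in P and 34.6, 21.4 and 26.6 CPM in P+T, a log2 change of -3.96 ± 0.88 (SE, adjusted p = 0.0430). In both genes the lowest P library was above the highest P+T library, and P replicate 1 was the lowest of the P libraries. AT3G62950, of the thioredoxin superfamily, DOG1, a regulator of seed dormancy, AT5G62280 and AGG3, a G protein gamma subunit, also fell, with log2 changes of -5.40, -4.44, -4.07 and -4.02, the last 3 from levels of 0.469 to 6.59 CPM. With all 12 libraries the calls held for AT3G62950 and AT5G61590 and were lost for NCED4 (adjusted p = 0.201), DOG1 (0.103), AT5G62280 (0.0991) and AGG3 (0.0720).

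**Figure D4:**
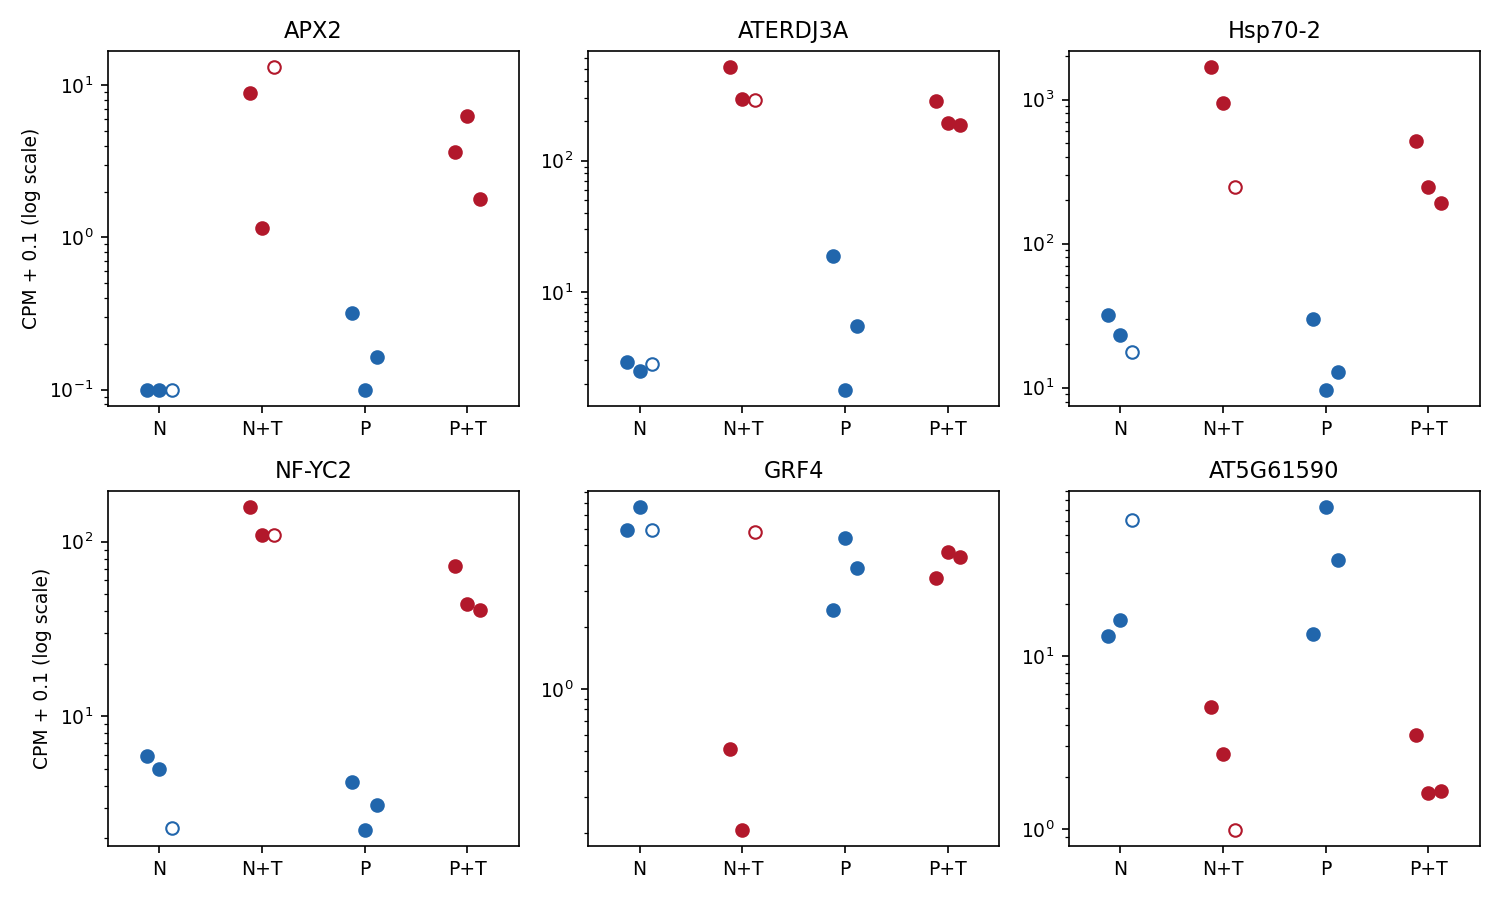
CPM + 0.1 (log axis) of 6 unmethylated genes in each library of N, N+T, P and P+T, with triggered groups in red, untriggered groups in blue and the 2 libraries left out of the fits as open circles. APX2, ATERDJ3A, Hsp70-2 and NF-YC2 are higher in the triggered groups, AT5G61590 is lower, and GRF4 is low in the 2 fitted N+T libraries only.

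Of 19 genes listed as known EL or stress responders, 15 had unmethylated bodies and 13 of these were tested. The list was drawn up with earlier results of these data known. RHL41, a zinc finger regulator, went from 1.70 and 1.37 CPM in the fitted N libraries to 119 and 23.5 CPM in N+T (log2 change 5.57 ± 1.34 SE, adjusted p = 0.0313), and was at 16.2 CPM in N replicate 3 and 7.14 CPM in N+T replicate 3. DREB2A, a transcription factor of the heat and drought response, went from 8.37, 5.53 and 3.17 CPM to 347, 56.0 and 54.4 CPM (4.89 ± 1.25 SE, adjusted p = 0.0367). With APX2 these were the 3 that rose, and DREB1A, a cold-response factor, was the 1 that fell, from 12.3, 15.2 and 35.1 CPM to 1.92, 0.908 and 3.57 CPM (-3.37 ± 0.72 SE, adjusted p = 0.0229). ELIP1, a light-induced protein that binds chlorophyll, was at 1.64, 1.33 and 7.87 CPM in N and 11.5, 7.99 and 10.1 CPM in N+T and did not pass (adjusted p = 0.0816). In primed plants only CBF2, a relative of DREB1A, passed, with a fall from 1.43, 3.24 and 3.53 CPM to 0.174, 0.154 and 0.369 CPM (adjusted p = 0.0250).

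The families are described by their counts, to be read against the 7.74% of all tested loci that rose and the 7.43% that fell in naive plants, and no family was tested. Of 47 tested unmethylated heat shock and related chaperone genes, 16 rose and 2 fell in naive plants and 6 rose in primed plants, with median log2 changes of 3.85 and 2.23, against -0.01 and -0.07 for all tested unmethylated genes. Of 86 tested heat shock genes outside the unmethylated class, 13 rose in naive plants and 13 in primed plants. Zinc finger genes rose in 17 and fell in 20 of 190 cases in naive plants. NAC factors rose in 10 and fell in 1 of 31 cases in naive plants, peroxidases rose in 8 and fell in 1 of 34, and glutathione S-transferases, which conjugate glutathione to reactive compounds, rose in 6 and fell in none of 26. Histones fell in 8 of 36 cases, expansins in 5 of 17, bHLH factors in 8 of 55 and leucine-rich repeat kinases in 8 of 25. Of 208 tested ribosomal protein genes, 2 rose and 5 fell, and of 45 light-harvesting and photosystem genes, 1 fell. Outside the unmethylated class, NAC factors rose in 4 of 19 cases, glutathione S-transferases in 3 of 19 and peroxidases in 2 of 16. Zinc finger genes there rose in 35 and fell in 17 of 356 cases. Leucine-rich repeat kinases there fell in 25 of 105 cases, bHLH factors in 3 of 25 and histones in 0 of 8. No expansin outside the class was tested. The counts are not read as particular to unmethylated genes.

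Many of the genes that responded in primed plants also responded in naive plants. The test was passed in both comparisons by 209 unmethylated genes, which is 18.4% of the naive list and 58.5% of the primed list. Of these, 206 changed in the same direction. The overlap was not counted over all tested loci, so it is not read as particular to unmethylated genes. The 2 comparisons share no library, but their spread was estimated in 1 fit. Before triggering, no unmethylated gene passed in P against N (0% of all loci), and after triggering none passed in P+T against N+T (0% of all loci), by edgeR. At an unadjusted p below 0.05 there were 676 and 1426 of 6418 unmethylated genes, against 1576 and 3595 of all 17986 loci. DESeq2 called 162 (2.54%, against 1.89% of all loci) and 369 (5.99%, against 4.13%). Without P replicate 1, edgeR called 284 in P against N (4.43%, against 3.54% of all loci). Without N+T replicate 2, which leaves 1 fitted library in N+T, genes were also called in P+T against N+T.

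One unmethylated gene passed the test of the interaction, that is, of a different response to triggering in primed and naive plants, and it was the only one of all 17986 loci (0.00556%). This was AT4G15690, of the thioredoxin superfamily (chromosome 4, 8934296 to 8934961, + strand). It was at 4.91 and 4.55 CPM in the fitted N libraries, 11.3 and 11.4 CPM in N+T, 11.6, 10.2 and 10.3 CPM in P and 4.17, 4.55 and 4.64 CPM in P+T. It rose in naive plants (log2 change 1.27 ± 0.17 SE, edgeR adjusted p = 0.0078) and fell in primed plants (-1.26 ± 0.14 SE, adjusted p = 0.0059), an interaction of -2.54 ± 0.22 (SE, adjusted p = 0.0325). The libraries left out went the other way, with 22.2 CPM in N and 5.35 CPM in N+T, and with all 12 libraries the interaction was -1.11 (adjusted p = 0.997). The call was also lost without any one of N replicates 1 and 2, N+T replicate 1, P replicates 2 and 3 and P+T replicates 2 and 3, whereas 117 unmethylated genes passed without P replicate 1, 4 without N+T replicate 2 and 3 without P+T replicate 1. The 117 were 1.82% of the tested unmethylated genes, against 1.35% of all loci. At an unadjusted p below 0.05 there were 1259 of 6418 unmethylated genes, against 3006 of all 17986 loci. DESeq2 called 368 (5.78%, against 4.20% of all loci). The gene lies in a row of 5 thioredoxin superfamily genes with coding sequences of 309 bp each, AT4G15660 to AT4G15700, so that the division of reads among copies is uncertain.

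Methylation gained in strs2 was sought first without using the same plants for the choice and the comparison. The unmethylated genes were chosen again from 2 WT plants, and genes with a body CG level of 7% or more were counted in the WT plant left out and in each strs2 plant. Each WT plant left out in turn had 2 such genes, among 12231 to 12427. The strs2 plants had 92.0, 88.0 and 85.7, as means over the 3 choices. The mean was 2 ± 0 (SD, n = 3) in WT and 88.6 ± 3.20 (SD, n = 3) in strs2, with no overlap (two-sided exact permutation test, p = 0.1, the smallest that 3 against 3 plants allow). Between 44 and 47 genes were at 7% or more in all 3 strs2 plants at once. Summed over all bodies chosen in this way, the CG level was 0.553%, 0.641% and 0.548% in the left-out WT plants, against 0.693%, 0.700% and 0.754% for strs2 (two-sided exact permutation test, p = 0.1). The genes were chosen as unmethylated in WT plants, so plants of another line could hardly be lower. No reverse choice from strs2 plants was made, so neither comparison shows which direction of change prevailed. The 3 choices also shared WT plants, so the values are not fully independent.

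With the choice from all 3 WT plants, 73 of the 12491 genes (0.584%) had a CG level in every strs2 plant at least 5 percentage points above every WT plant. Over all 28495 genes that could be compared, 1.02% gained as much and 0.926% lost as much, and among CG-methylated genes 122 gained and 191 lost. A loss of this size is not possible for a gene that starts below 2%, so nothing is read from its absence here. Most gains were small: the median strs2 level of the 73 was 10.0%, 9 were at 20% or more and 3 at 50% or more. Of the 73, 57 were protein-coding and 12 long non-coding RNA genes, the median span was 1006 bp, and 25 overlapped another locus.

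By the gap between the lowest strs2 plant and the highest WT plant, the largest gain was in AGL85 (chromosome 1, 20433912 to 20434397, + strand, 1 exon). Its body CG level was 1.51%, 1.29% and 0.578% in WT and 87.9%, 91.1% and 86.8% in strs2, and its CHG level was 0.752%, 0% and 0.673% against 28.4%, 32.8% and 30.6%. Its CHH level went from 0.409%, 0.452% and 0.268% to 3.45%, 5.11% and 3.50%, so that all 3 contexts rose in every strs2 plant. AGL85 was not transcribed at a level that passed the filter.

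Another stretch of chromosome 1 held the next. AT1G07887, a long non-coding RNA gene (19963067 to 19964105, + strand), lies wholly within MRD1 (19963047 to 19964712, - strand), a gene first described by its low transcript level in the mto1 mutant. AT1G07887 was at 1.54%, 2.64% and 0.827% CG in WT and 91.5%, 92.7% and 85.9% in strs2, and MRD1 at 1.12%, 1.897% and 0.729% against 46.2%, 54.2% and 47.8%. As they share cytosines, this is 1 methylated stretch. MRD1 was at 26.3, 26.3 and 40.04 CPM in N, and its expression in strs2 was not measured.

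Other gains fell into those with and without the non-CG contexts. AT2G00840, a non-coding locus, was at 0%, 0% and 0.389% CG in WT and 60.5%, 50.2% and 58.7% in strs2, with CHG at 21.2%, 15.0% and 13.7% in strs2. AT1G09245, of a self-incompatibility protein family, was at 0%, 0.917% and 1.34% CG in WT and 38.0%, 33.3% and 29.7% in strs2, with CHG at 0.709%, 0.800% and 1.98%. In AT3G29280 the strs2 plants were at 33.1%, 44.0% and 18.2% CG and at most 0.676% CHG. The CHG level was below 1% in every strs2 plant in 40 of the 73 genes and at 5% or more in every strs2 plant in 7. The other genes among the 12 largest gains were AT5G07145, AT1G07777 and AT5G07575, which are long non-coding RNA genes, AT3G09960, a phosphoesterase, AT2G40745 and AT5G61680, a pectin lyase-like protein, with 14.9% to 45.8% CG in the strs2 plants.

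**Figure D5:**
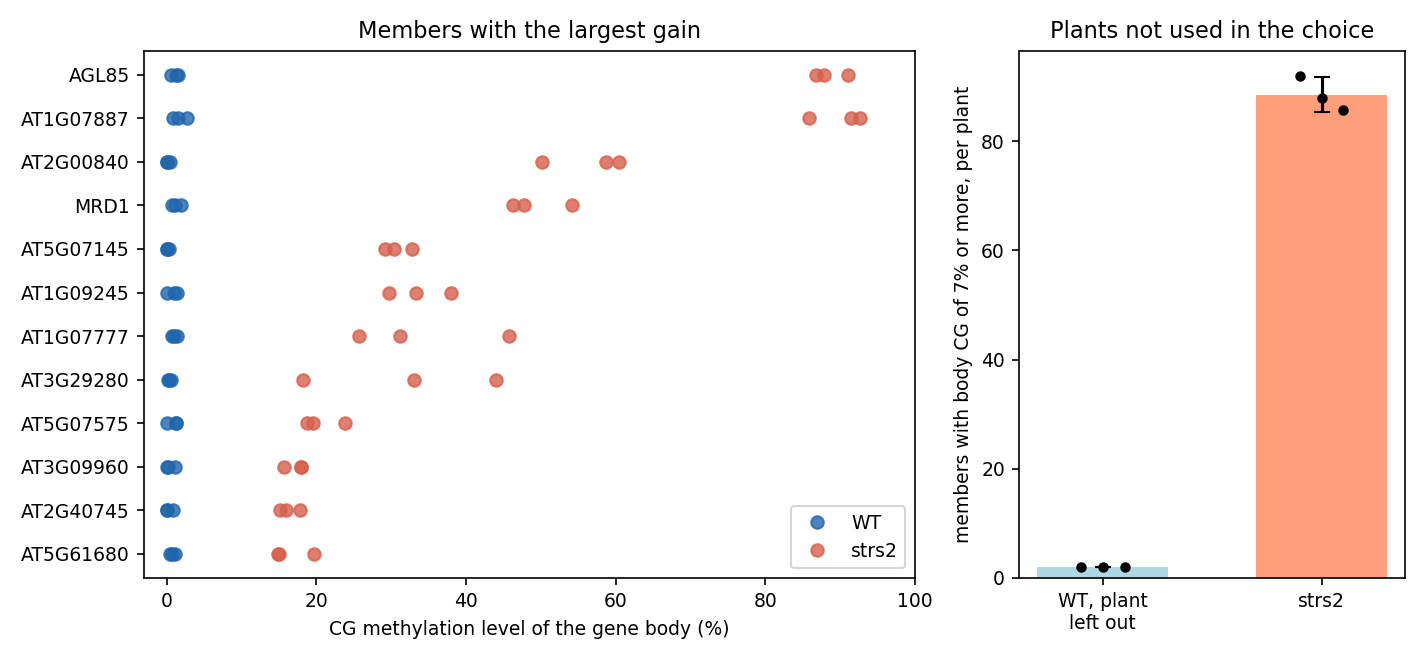
Left, body CG level in percent of the 12 unmethylated genes with the largest gain, in the 3 WT (blue) and 3 strs2 (red) plants, which chose them. Right, number of unmethylated genes with a body CG level of 7% or more in plants that took no part in the choice: bars are means, error bars SD and points the single plants, at 2 for each WT plant and 85.7 to 92.0 for strs2.

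Of the 73 genes, 18 passed the expression filter in WT, against 51.4% of all unmethylated genes. The 73 were shorter, with a median span of 1006 bp against 1469 bp, and CPM is not scaled by length. Of the unmethylated genes below 1 kb, 21.6% passed the filter, so the lower share is not read as a trait of the gains. Of these 18, 2 were called in naive and 1 in primed plants, where the shares of all tested unmethylated genes were 17.7% and 5.56%, so nothing is read from these counts. AT2G06995, a long non-coding RNA gene, and AT1G78170, an E3 ubiquitin ligase, fell in naive plants after EL, and AT2G06995 also fell in primed plants. AT2G06995 was at 1.70, 1.63 and 4.86 CPM in N and 0.549, 0.545 and 0.297 CPM in N+T. Among the gains was a chaperone gene, AT2G20560, of the DNAJ family, at 16.9, 12.6 and 5.56 CPM in N and 914, 271 and 616 CPM in N+T (edgeR adjusted p = 0.0612), with a strs2 CG mean of 9.02%.

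Local gains were also sought within gene bodies. In windows of 200 bp with at least 4 CG cytosines and 12 calls in every plant, 101 of 80904 windows of unmethylated genes (0.125%) were at least 30 percentage points higher in every strs2 plant than in every WT plant, and 4 (0.00494%) were as much lower. Over the windows of all genes the shares were 0.62% and 0.589%, and in CG-methylated genes 0.969% and 0.978%. Unmethylated genes were chosen for a low CG level in WT, so their windows could hardly fall by 30 points. The small number of losses is therefore not read as a bias towards gain. The 101 windows lay in 90 genes, 85 of which had a single one, and 34 of the 90 were among the 73 with a body gain. The other 39 of the 73 had no such window. In AGL85 and AT1G07887 the gain was not confined to a part, with body CG levels of 86.8% to 91.1% and 85.9% to 92.7% in strs2. The median level of these windows was 0.476% in WT and 50.5% in strs2. Of the windows, 16 lay in the first of 3 equal parts of the gene, counted from its 5′ end, 42 in the middle part and 43 in the last (15.8%, 41.6% and 42.6%), against 32.9%, 35.5% and 31.6% of all windows of unmethylated genes.

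The 10 windows with the largest difference came from 4 genes. These were 4 windows of MRD1 and 3 of AT1G07887, which overlap each other, 2 of AGL85 and 1 of AT3G09960, with mean differences of 86.4 to 92.1 percentage points. In AT3G09960 the window was at 0%, 2.60% and 0% in WT and 87.8%, 87.0% and 92.3% in strs2, while the whole body of 88 CG cytosines was at 15.7%, 17.9% and 18.0% in strs2. In ERO1, the window printed above was the gain of a gene whose body as a whole did not reach the limit of 5 points.

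In the CHH context, which the limits did not use, 11 of the 12489 tested unmethylated genes differed between the genotypes (0.0881%, against 0.13% of all genes), by edgeR's quasi-likelihood test on methylated and unmethylated calls. All 11 were higher in strs2, against 0.0807% of all genes, and a gene at the level of unconverted cytosines can hardly fall. At an unadjusted p below 0.05 there were 582 of the 12489, against 1421 of all 28491 genes tested. Of the 11, 8 were among the 73 with a CG gain, including AGL85, AT1G07887, MRD1, AT2G00840 and AT3G09960. AT1G07887 lies within MRD1, and AT1G07463 within AT1G07457, both also among the 8. Loci of such a pair share cytosines and are not separate stretches.

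The others were GRX480, MIZ1 and AT2G34060. GRX480, a glutaredoxin of salicylate and jasmonate signalling, had CHH levels of 0.491%, 0.783% and 1.20% in WT and 2.90%, 7.79% and 2.17% in strs2 (log2 ratio 2.28, edgeR adjusted p = 9.6e-05), with a CG level of at most 0.929% in any plant. MIZ1, needed for root hydrotropism, was at 0.297%, 0.159% and 0.334% in WT and 1.15%, 0.887% and 0.804% in strs2, and AT2G34060, a peroxidase, at 0.435%, 0.543% and 0.504% against 1.03%, 1.45% and 1.18%. In all 3 genes the lowest strs2 plant was above the highest WT plant.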

How the data were processed

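The authors trimmed MethylC-seq reads with Trim Galore, aligned them with Bismark and Bowtie2 to TAIR10 and deposited, per cytosine and context, the counts of methylated and unmethylated calls at a depth over 3. For mRNA-seq they deposited strand-specific counts of uniquely mapped reads per Araport11 gene (Subread, featureCounts). Calls of both strands within each gene span were summed here. Counts were fitted with edgeR 4.0.16 (TMM, quasi-likelihood, Benjamini-Hochberg) in R 4.3.3 on 10 libraries, for genes above 1 CPM in 3 of the 12 libraries, after removal of organellar and rRNA loci. edgeR also tested methylated against unmethylated CHH calls per gene. Alternatives included all 12 libraries, DESeq2 1.42.0, no filter, a replicate block and each sample left out. The named genes were, per comparison, the 6 largest changes in each direction among those called whose fitted groups did not overlap, the 12 largest gains, the 10 largest gain windows, the 6 most abundant genes, the 4 with most CG cytosines, the 3 on either side of the CG limit and the listed genes. The CHH genes, AT2G06995, AT1G78170, AT2G20560 and ERO1 were named after their values were seen. The members and gene lists were chosen with earlier results of these data known. Permutation and counting intervals cover these samples and counting error only, and PCR duplicates are not independent molecules.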

Additional observations from a re-analysis of the deposited data

Results flagged for a closer look

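The response of AT4G15690 to triggering differed between naive and primed plants by the interaction term of the fit, at -2.54 on the log2 scale (edgeR adjusted p = 0.0325). The 2 libraries left out of the fit went against the naive rise, and the gene has same-length neighbours of the same product. Of these, AT4G15700 had an interaction of -3.48 and AT4G15680 one of -2.64, neither of which passed (adjusted p of 0.120 and 0.160).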

How the results depend on the processing

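The counts of called genes were the values that depended most on the processing, and the causes were not tested. With all 12 libraries the unmethylated genes called were 377 in N+T against N, 84 in P+T against P and 0 for the interaction, and with DESeq2 they were 1858, 923 and 368, with 162 in P against N and 369 in P+T against N+T. Without a filter the interaction gave 0. Leaving out 1 library gave 1 to 1631 in N+T against N, 36 to 927 in P+T against P, 0 to 284 in P against N, 0 to 94 in P+T against N+T and 0 to 117 for the interaction. Replicate numbers did not pair the libraries: 7 of 18 same-numbered pairs correlated above 0.1 (r from -0.375 to 0.697). With the replicate block the counts were 1180, 242 and 0 for the first 2 comparisons and the interaction, and 12 genes were called for CHH. Of 360 refits of the named light-responsive genes, 231 kept the call, 129 lost it and none reversed.

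Gains in strs2 numbered 44 with 40 CG cytosines required, 19 at 10 points and 241 at 2 points, and 75 to 89 with a plant left out. Local gains numbered 27 at 50 points, 220 in windows of 100 bp and 99 to 125 with a plant left out. Genes called for CHH numbered 9 to 11, and unmethylated genes 12231 to 12427, with a plant left out. The strs2 minus WT difference with a plant left out was -0.0424 to 0.0101 points for body CHH, -0.0637 to 0.288 for upstream CG, 0.0386 to 0.346 for downstream CG, -0.0412 to 0.132 and -0.0615 to 0.139 for upstream and downstream CHG, and -0.0800 to 0.0111 and -0.0827 to 0.00910 for upstream and downstream CHH. In flanks of 500 bp the downstream CHG difference was -0.00340. By exon length, chosen after seeing the data, 11 libraries in place of 7 had the lower median RPKM in unmethylated genes.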
